A study of Mus musculus with 20 samples.

Results

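The regions described here are stretches of chromatin that were listed as open 4 hours after 3T3-L1 cells were induced to become adipocytes, and at none of the other 5 times profiled. They were chosen from the 6 lists of DNase I hypersensitive sites (DHS) themselves. Peaks of the 6 lists that overlapped by at least 1 bp were merged into 46760 union regions, and those with a peak in the 4 hours list and in no other list were kept. This rule gave 5744 regions, 12.3% of all union regions and 18.4% of the 31239 regions listed at 4 hours. Each rested on a single 4 hours peak, except for 1 region that joined 2. Being listed is what the rule used, so openness at 4 hours and its absence at other times are given as descriptions. The factor and RNA polymerase II lists took no part in the choice.

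DNase I cuts DNA where nucleosomes have been displaced, which happens at active promoters and enhancers. In adipogenesis, a hormone cocktail acts on preadipocytes within hours. Dexamethasone activates the glucocorticoid receptor (GR), and the bZIP factors C/EBPbeta and C/EBPdelta are induced early and later help to switch on PPARgamma, the nuclear receptor that directs fat cell formation. Stat5a is a signal-dependent activator downstream of hormone and cytokine receptors, and RXR is the dimer partner of PPARgamma and of several other nuclear receptors. RNA polymerase II (RNA Pol II) marks promoters and transcribed genes.

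3T3-L1 is an established mouse preadipocyte line. All cells were taken 2 days past confluence (day 0) or at a stated time after adding a cocktail of insulin, fetal bovine serum, 3-isobutyl-1-methylxanthine (which slows the breakdown of cyclic AMP) and dexamethasone. At day 2 this was replaced by serum with insulin, and later by serum without it. The DHS lists were of day 0, of 2 and 4 hours, and of day 1, day 2 and day 6. Chromatin immunoprecipitation (ChIP-seq) lists covered C/EBPbeta on day 0, at 2 hours, at 4 hours and on day 2, C/EBPdelta on day 0 and at 4 hours, GR, Stat5a and RXR at 4 hours, PPARgamma on day 2 and day 6, and RNA Pol II on day 0 and at 4 hours. Every list came from 1 library, so no difference between times or between classes of regions could be tested against replicate spread. The 95% intervals given for shares are exact (Clopper-Pearson) and cover counting error only. Peaks carry no score or read count, and the depth per library is unknown.

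The lists differ in length, which bears on every statement that a region was absent from one. The DHS lists held 9989 peaks on day 0, 9055 at 2 hours, 31751 at 4 hours, 35389 on day 1, 25097 on day 2 and 11936 on day 6. The day 1 list had the largest effect on the choice: without it, the rule gave 11140 regions in place of 5744. Of the regions in each list, 18.4% were in that list alone at 4 hours, 19.8% on day 1 and 16.8% on day 2, against 2.27% on day 0, 1.19% at 2 hours and 4.12% on day 6. Regions found in a single list were therefore about as frequent in the day 1 list as in the 4 hours list, and rare in the 3 short lists. Weak sites near the detection limit of 1 library and sites open for a short time cannot be told apart from these lists.

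These regions were set beside a later, an early and a day 1 class. The later class holds the 12997 regions that were listed at 4 hours and again on day 1, day 2 or day 6, but not on day 0 or at 2 hours. The early class holds the 329 regions listed at 2 and 4 hours and at no other time. The day 1 class holds the 6781 regions listed on day 1 and at no other time. The background given beside a share is its value over all 31239 regions listed at 4 hours, which include the 5744, or over those of them that meet the same condition.

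The regions open only at 4 hours were narrow. Their 4 hours peaks had a median width of 473 bp, with quartiles of 401 and 555 bp and a range of 251 to 1711 bp. The median of the 4 hours peaks was 555 bp in the later class, 580 bp in the early class, and 768 bp where the region was also listed on day 0. Day 1 peaks of the day 1 class, the other large set of single-list regions, had a median of 398 bp. The day 1 list ran from 150 to 5962 bp and the 4 hours list from 251 to 6065 bp. Widths of these 2 lists may therefore not be on the same scale, which was not tested. Of the narrowest quartile of the 4 hours list (251 to 486 bp), 39.5% of 7988 peaks lay in the regions open only at 4 hours. That share was 21.7% in the next quartile, 8.84% in the next, and 2.12% of the 7914 widest peaks (760 to 6065 bp). A small width was thus common to these regions. The rule named no width, but a wide peak has more room to overlap another list. How far the rule sets the width was not tested.

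**Figure D1:**
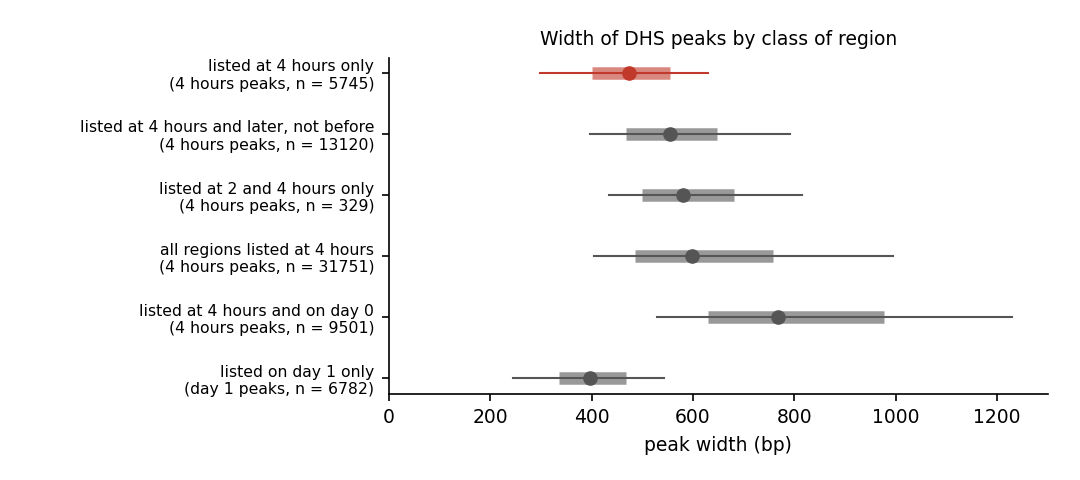
Width of DHS peaks in bp by class of region; points are medians, thick bars run from the lower to the upper quartile and thin lines from the 10th to the 90th percentile. Peaks of the regions listed at 4 hours only (red) have a median of 473 bp, below the other classes of 4 hours peaks. Peaks listed on day 1 only have a median of 398 bp, but the shortest peak is 150 bp in the day 1 list and 251 bp in the 4 hours list.

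The rule set that no peak of another DHS list overlapped these regions, so only the gaps are described. The median gap to the nearest peak of another DHS list was 9631 bp, and 5186 of the 5744 had none within 500 bp. Such a peak lay within 10 kb of 2921 (50.9%). For comparison, the nearest other region listed at 4 hours lay a median of 10717.5 bp away. The median gap was 11362 bp to the day 1 list, 20163 bp to day 2, 44394.5 bp to day 6, 51616 bp to day 0 and 55249.5 bp to 2 hours. These gaps followed list length, shortest to the longest list. Near the edge of the rule, 50 regions had a peak of another list within 50 bp without overlap. Their median width was 440 bp, 12 of them (24.0%) held C/EBPbeta at 4 hours and 17 (34.0%) held RNA Pol II at 4 hours. Just outside, 36 peaks of 4 hours overlapped another list by 50 bp or less. These had a median width of 416.5 bp. Factors were scored over their whole merged regions, which also include the peaks of other lists. C/EBPbeta of 4 hours lay in 16 of these (44.4%) and RNA Pol II of 4 hours in 19 (52.8%). Because a longer stretch was searched, these shares are not on the same footing as those of the 50.

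C/EBPbeta, the factor with the longest list at 4 hours, was the one most often present. At 4 hours it lay in 2279 of the 5744 regions, or 39.7% (95% interval 38.4 to 41.0), beside a background of 43.3%. In the later class it lay in 42.1% (41.3 to 43.0), in the early class in 73.6% (68.4 to 78.2), and in the day 1 class in 20.9% (20.0 to 21.9). C/EBPdelta, which pairs with C/EBPbeta, lay in 1169 regions, 20.4% (19.3 to 21.4; background 28.3%). Of these, 1084 also held C/EBPbeta, or 92.7% (background 94.9%). C/EBPbeta occupancy at 4 hours was thus close to that of the later class, while C/EBPdelta was below the 27.3% found there.

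The hormone-responsive factors were scarcer. Their lists were also shorter, at 4080 peaks for GR, 6977 for Stat5a and 2076 for RXR. The C/EBPbeta and C/EBPdelta lists of 4 hours held 29957 and 18327. The background followed the same order of the 5 factors. GR lay in 241 of the 5744 regions, 4.20% (3.69 to 4.75; background 9.96%), against 7.45% of the later class and 21.3% (17.0 to 26.1) of the early class. Stat5a lay in 413 regions, 7.19% (6.54 to 7.89; background 11.0%), against 8.68% and 28.3% in those classes. RXR was listed in 72 regions, 1.25% (0.982 to 1.58; background 4.84%), against 3.38% and 6.99%. Each of the 5 factors was less frequent than in the later and early classes and more frequent than in the day 1 class, where the shares were 11.6% for C/EBPdelta, 2.61% for GR, 4.75% for Stat5a and 0.988% for RXR. The RXR intervals of these regions and of the day 1 class (0.767 to 1.25) overlapped.

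**Figure D2:**
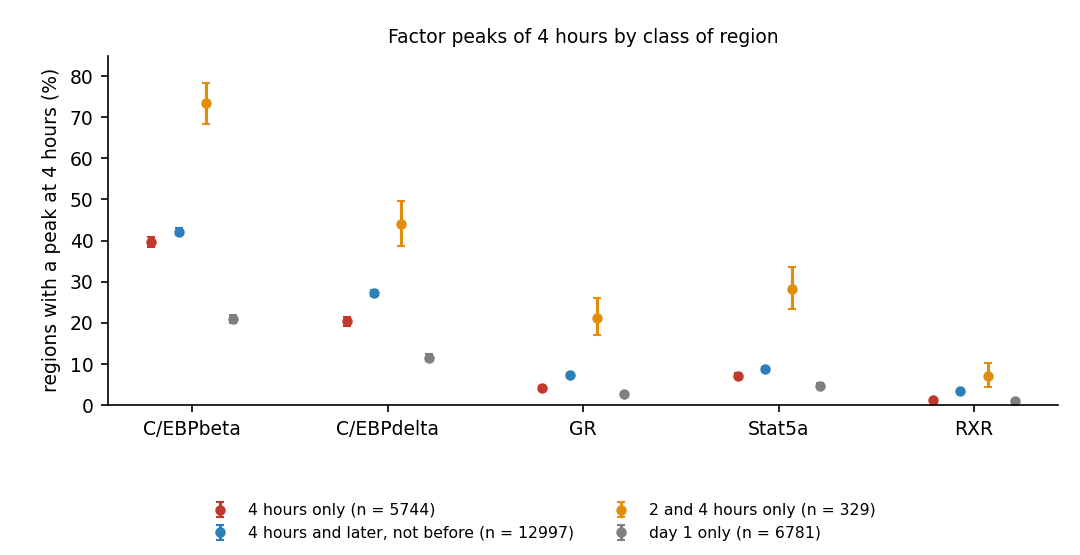
Share of regions (%) with a peak of each factor at 4 hours, by class of region; bars are exact 95% intervals over regions. Regions listed at 4 hours only (red) lie at 39.7% for C/EBPbeta and 4.20% for GR, below the early class (orange; 73.6% and 21.3%).

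Width moved with these shares. Within the regions open only at 4 hours, C/EBPbeta lay in 30.7% of the narrowest quartile (251 to 402 bp) and 51.0% of the widest (556 to 1711 bp), and GR in 2.91% and 6.57%. Among 4 hours peaks of 402 to 555 bp, the middle of their widths, C/EBPbeta lay in 38.5% (36.7 to 40.3, n = 2879) of peaks in these regions and in 39.6% (38.3 to 40.9, n = 5204) of peaks in the later class. In the same width range, C/EBPdelta was at 19.0% and 24.9%, GR at 3.65% (2.99 to 4.40) and 6.32% (5.68 to 7.02), Stat5a at 6.60% and 7.72%, and RXR at 1.22% and 2.88%. At equal width the lower GR, RXR and C/EBPdelta shares were still seen, and the Stat5a intervals (5.72 to 7.57 and 7.01 to 8.48) overlapped.

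None of the 5 factors was listed at 3273 regions, 57.0% (55.7 to 58.3), close to the background of 53.6%. Of the others, 1235 held 1 factor, 21.5% of the 5744 (background 16.9%), and 892 held 2, 15.5% (background 16.8%). There were 241 with 3, 4.20% (background 6.26%), 83 with 4, 1.44% (background 3.83%), and 20 with all 5. Regions with 2 or more factors numbered 1236, 21.5% (20.5 to 22.6; background 29.5%), against 28.3% (27.5 to 29.0) of the later class. Regions with all 5 made up 0.348% (0.213 to 0.537; background 2.54%), against 1.32% of the later class and 4.26% of the early class. The most frequent combinations were C/EBPbeta alone (1059 regions, 18.4%, background 14.2%) and C/EBPbeta with C/EBPdelta (768, 13.4%, background 14.8%). Next came both of these with Stat5a (110, 1.92%, background 2.40%), Stat5a alone (92, 1.60%, background 1.16%) and both with GR (82, 1.43%, background 2.68%). GR without C/EBPbeta was found at 13 regions. C/EBPbeta accompanied GR at 94.6% (91.0 to 97.1) of its 241 regions, near the background of 95.9%. Stat5a had C/EBPbeta beside it at 74.8% (70.3 to 78.9) of 413, below the background of 87.1%. These shares moved when the DHS lists were shortened by width, which changes list length, peak width and the regions kept together. With all 6 shortened by width to 9055 peaks, the rule kept 904 regions, which are wide at 4 hours and can hold a narrower peak at another time. C/EBPbeta lay in 53.5% of the 904, C/EBPdelta in 35.1%, GR in 11.0%, Stat5a in 12.1%, RXR in 4.20% and 2 or more factors in 37.7%. Each of these was above the share in the 5744, and all but C/EBPbeta were so by more than 1.5 times.

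Median width of the 5744 went from 458 bp with no factor to 485, 498.5, 514, 540 and 565.5 bp with 1 to 5 factors.

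The 5 widest of the 20 regions with all 5 factors differed in when C/EBPbeta was bound (positions are on mm9, counted from 1). At chr1:190067398-190068347 (950 bp) C/EBPbeta was listed at 4 hours and on day 2. At chr2:35529465-35530214 it was listed at all 4 times, and at chr2:79785999-79786663 at 4 hours alone. The region at chr3:88927153-88927796 had it at 2 hours, 4 hours and on day 2, and that at chr15:61188247-61188861 on day 0, at 2 hours and at 4 hours. Over all 20, C/EBPbeta was present on day 0 at 9, at 2 hours at 16 and on day 2 at 15. None of the 20 held PPARgamma or RNA Pol II at any time profiled. The 3 widest regions with GR and no C/EBPbeta at 4 hours lay at chr16:65386852-65387687, with Stat5a and RXR, at chr5:43439834-43440404, where C/EBPbeta was listed on day 2, and at chr17:84594999-84595557. The chromosome 5 region had a peak of another DHS list only 10 bp away.

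The other C/EBPbeta lists were of day 0, 2 hours and day 2, times at which the rule allowed no DHS peak. The later class was listed as open again on day 1 or after. How far these choices set the course of C/EBPbeta was not tested. In the lists, C/EBPbeta at these regions was most often present at 4 hours. It was present at 861 regions on day 0, 15.0% (14.1 to 15.9; background 30.2%), at 1252 at 2 hours, 21.8% (20.7 to 22.9; background 31.9%), at 39.7% at 4 hours, and at 648 on day 2, 11.3% (10.5 to 12.1; background 24.6%). The later class gave 28.2%, 30.2%, 42.1% and 26.9% at the same times. The share at 4 hours was thus 2.65 times that of day 0 and 3.52 times that of day 2, against 1.49 and 1.57 times in the later class. The early class showed a like rise and fall, at 2.40 and 3.97 times. The C/EBPbeta lists held 20471, 19703, 29957 and 21486 peaks. With all 4 shortened by width to 19703 peaks, the shares were 14.4%, 21.8%, 29.2% (28.0 to 30.4) and 10.3% (9.51 to 11.1), or 2.02 and 2.84 times those of day 0 and day 2. At equal list length, the corresponding ratios were 1.22 and 1.31 in the later class and 2.14 and 3.65 in the early class. With the DHS lists at equal length, the 904 regions held C/EBPbeta in 30.1% on day 0, 36.2% at 2 hours, 53.5% at 4 hours and 24.2% on day 2, so that 4 hours was again the highest, at 1.78 and 2.21 times the share of day 0 and day 2. In the day 1 class C/EBPbeta showed no such peak at equal length, with 16.0% on day 0, 13.6% at 4 hours and 11.8% on day 2.

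**Figure D3:**
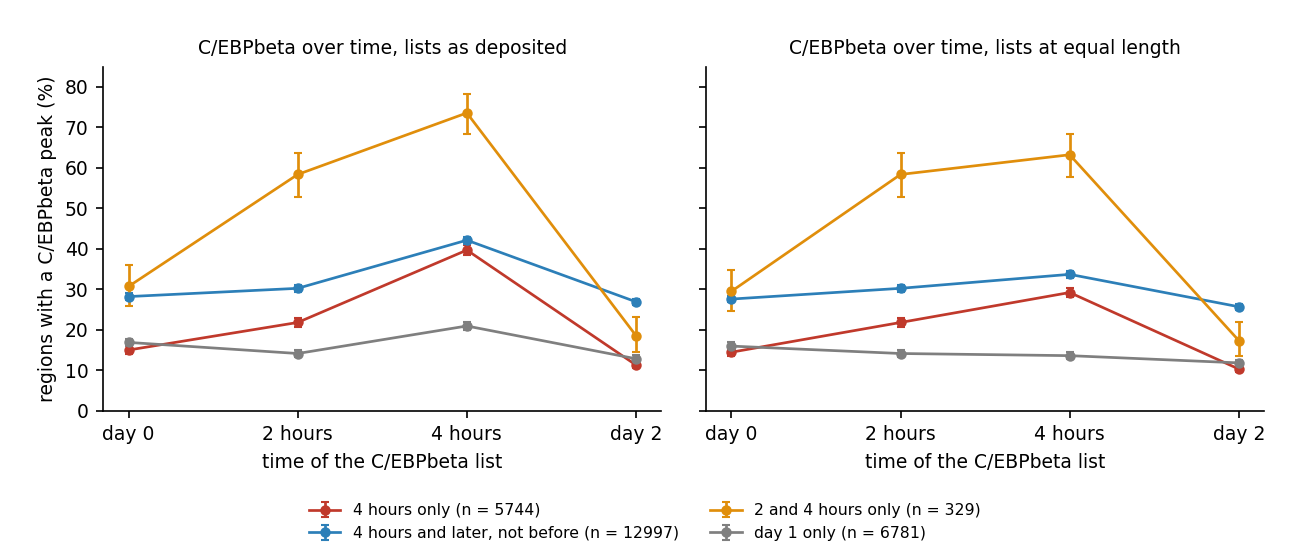
Share of regions (%) with a C/EBPbeta peak on day 0, at 2 hours, at 4 hours and on day 2, with the lists as deposited (left) and shortened to equal length by width (right); bars are exact 95% intervals. In regions listed at 4 hours only (red) the share goes from 15.0% on day 0 to 39.7% at 4 hours and 11.3% on day 2.

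New C/EBPbeta binding by 4 hours, meaning a peak at 4 hours and none on day 0, was found at 1529 regions, 26.6% (25.5 to 27.8; background 16.4%). The share was 16.9% (16.2 to 17.5) in the later class and 44.4% (38.9 to 49.9) in the early class. Of these 1529, 37.1% (34.7 to 39.6; background 43.7%) already held C/EBPbeta at 2 hours and 18.4% (16.5 to 20.4; background 29.9%) still held it on day 2. In the later class, 43.4% of 2195 newly bound regions held it at 2 hours and 41.4% (39.3 to 43.5) on day 2. Regions that had C/EBPbeta on day 0 as well as at 4 hours held it on day 2 more often, at 46.9% (43.3 to 50.6; background 70.4%) of 750, against 74.8% (73.2 to 76.2) of 3280 in the later class. Loss of C/EBPbeta between day 0 and 4 hours was seen at 111 regions, 1.93% (1.59 to 2.32; background 3.26%).

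Over the 4 times, 2425 regions held C/EBPbeta at least once. The most frequent course was a peak at 4 hours and at no other time, at 881 regions, 36.3% of the 2425 and 15.3% (14.4 to 16.3; background 7.81%) of all 5744. Next came 2 and 4 hours (367), all 4 times (338), day 0 with 2 and 4 hours (292), and 2 hours, 4 hours and day 2 (200). Of all 5744, the course of 367 made up 6.39% (background 3.69%), that of 292 made up 5.08% (background 5.54%) and that of 200 made up 3.48% (background 3.48%). Presence at all 4 times made up 5.88% (5.29 to 6.52; background 18.2%), whereas it was the leading course of the later class, at 2315 of its 5987 C/EBPbeta regions.

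**Figure D4:**
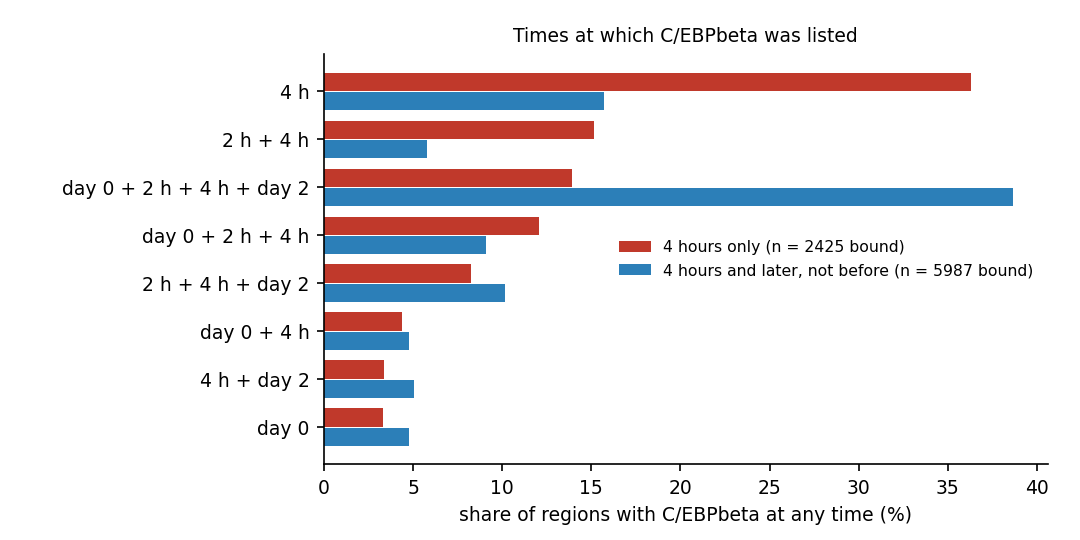
The 8 most frequent courses of C/EBPbeta in the regions listed at 4 hours only (red), as a share (%) of regions with C/EBPbeta at any time, beside the later class (blue). A peak at 4 hours alone leads in the former at 36.3% and presence at all 4 times leads in the latter.

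Single regions show these courses. C/EBPbeta at 4 hours alone was found at chr7:135194141-135195242 (1102 bp), chr5:31378590-31379579 (990 bp) and chr3:148151908-148152878 (971 bp), the last with C/EBPdelta and Stat5a. It was present at all 4 times at chr6:147592278-147593391 (with C/EBPdelta, Stat5a and RXR), chr17:27193139-27194180 (with C/EBPdelta and both RNA Pol II peaks) and chr17:12556392-12557379 (with no other factor). At these 3 regions the DHS lists held a peak at 4 hours only, while the C/EBPbeta lists held one before and after. A further 80 regions, 1.39% (background 2.50%), held C/EBPbeta on day 0 and at no later time. The widest were at chr5:53748107-53748922, chr13:112094317-112094954 and chr10:69219582-69220216. These 3 widest carried none of the 5 factors at 4 hours, when their chromatin was listed as open.

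Where C/EBPbeta was present at 4 hours, its peak was centred near the middle of the DHS peak. The median distance between the middles was 56 bp, and 74.9% of 2279 lay within 100 bp, against 55 bp and 71.6% in the later class. Distances were 68 bp for C/EBPdelta, 67 bp for GR, 71.5 bp for RXR and 88 bp for Stat5a, and longest for RNA Pol II at 4 hours (169 bp). C/EBPbeta peaks in these regions had a median width of 602 bp, against 632 bp in the later class. Of the 3465 regions without C/EBPbeta at 4 hours, 167 (4.82%) had such a peak within 500 bp. The median gap was 15412 bp, so few were near misses.

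C/EBPdelta on day 0 was at 46 regions, 0.801% (0.587 to 1.07; background 5.75%). That share was 1.24% without the day 1 DHS list and 2.99% with DHS lists at equal length. PPARgamma was profiled on day 2 and day 6 alone, times at which the rule allowed no DHS peak. The background and the later class include regions listed as open then. How far this sets the contrast was not tested. In these regions PPARgamma was almost absent. It lay in 15 of the 5744 regions on day 2, 0.261% (0.146 to 0.430; background 4.07%), and in 40 on day 6, 0.696% (0.498 to 0.947; background 5.85%). Leaving the day 2 DHS list out of the rule gave 0.813% and 1.61%, and DHS lists at equal length gave 1.11% and 1.99%. Without the day 1 list, the day 2 value was 0.404%. All of these were higher, and still below the background of the unchanged lists. The background was not computed again under these settings. The later class, listed as open again on day 1 or after, held it in 4.47% and 6.26%. In the day 1 class the shares were 0.649% and 1.62%, and in the early class 1 and 3 of 329 regions. Among regions with C/EBPbeta at 4 hours, PPARgamma of day 6 lay in 25 of 2279 (1.10%, 0.711 to 1.62; background 9.95%), against 10.8% (10.02 to 11.7) of 5475 in the later class. The 3 widest regions with PPARgamma on day 6 were at chr6:99162127-99163007 (with GR and both C/EBP factors at 4 hours), chr19:46529743-46530476 (with C/EBPbeta at all 4 times) and chr3:122825353-122826048 (with no other ChIP peak). The chromosome 19 region lay 51 bp from a peak of another DHS list.

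A large group carried no ChIP peak at all. Of the 5744 regions, 2736 were in none of the 13 ChIP-seq lists, 47.6% (46.3 to 48.9; background 27.6%). The share was 31.6% in the later class, 16.7% in the early class and 63.9% in the day 1 class. The widest of them were at chr5:115376180-115377254, chr10:45608626-45609682 and chr2:64859428-64860479, each over 1000 bp wide. Stat5a was the only one of the 5 factors at 92 regions, 1.60% (background 1.16%). The widest of these, at chr2:154844765-154845961, chr14:57935419-57936458 and chr17:16476634-16477525, held no peak of any other ChIP list either.

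RNA Pol II lay in few of these regions. It was listed on day 0 at 310, 5.40% (4.83 to 6.01; background 26.9%), and at 4 hours at 384, 6.69% (6.05 to 7.36; background 24.8%). In the later class the shares were 21.0% and 19.4%, and within the 402 to 555 bp range of widths 13.8% and 11.8% of the later peaks, against 4.48% and 5.66%. RNA Pol II was at neither time in 5230 regions, 91.1% (background 69.1%). With only the wider peaks of each list, the shares were 11.2% on day 0 and 10.2% at 4 hours, higher by more than 1.5 times and in the opposite order. The 904 regions kept with DHS lists of equal length differed here, with 25.0% on day 0 and 25.2% at 4 hours, and a gain, as defined next, in 5.86%. Of these 904, 21.2% held no ChIP peak.

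A gain of RNA Pol II, a peak at 4 hours with none on day 0, was found at 204 regions, 3.55% (3.09 to 4.06). This share is close to the background of 3.99% and to the 3.89% (3.57 to 4.24) of the later class. A loss was found at 130, 2.26% (1.89 to 2.68; background 6.09%), and both peaks at 180, 3.13% (2.70 to 3.62; background 20.8%). Gains made up 61.1% (55.6 to 66.3) of the 334 regions with RNA Pol II at 1 time alone. They made up 41.7% (38.9 to 44.5) of 1214 in the later class, 26.2% (20.4 to 32.7) of 210 in the day 1 class and 39.6% of all 3148 such regions listed at 4 hours. In the early class they made up 69.2% (38.6 to 90.9) of 13, an interval that holds the share in the regions open only at 4 hours. The excess also depended on the lists. With only the wider peaks of each list there were 90 gains and 118 losses, a share of 43.3% (36.4 to 50.3). With DHS lists at equal length there were 53 gains and 51 losses, and without the day 1 DHS list 341 and 319. In the RNA Pol II lists as a whole, 4353 regions were of 4 hours alone and 6589 of day 0 alone.

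Gains were more frequent beside chromatin open at another time. Of the 558 regions with another DHS peak within 500 bp, 93 (16.7%, 13.7 to 20.0) gained RNA Pol II, against 111 of the 5186 farther away (2.14%, 1.76 to 2.57). Losses were at 7.17% and 1.74%, and both peaks at 9.50% and 2.45%. C/EBPbeta at 4 hours went the other way, with 25.8% (22.2 to 29.6) of the near and 41.2% (39.8 to 42.5) of the far regions. Away from other open chromatin, gains made up 55.2% (48.1 to 62.2) of 201 changed regions. Joining DHS peaks up to 500 bp apart into 1 region left a gain at 1.98% and RNA Pol II of 4 hours at 4.31% of 5105 regions.

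**Figure D5:**
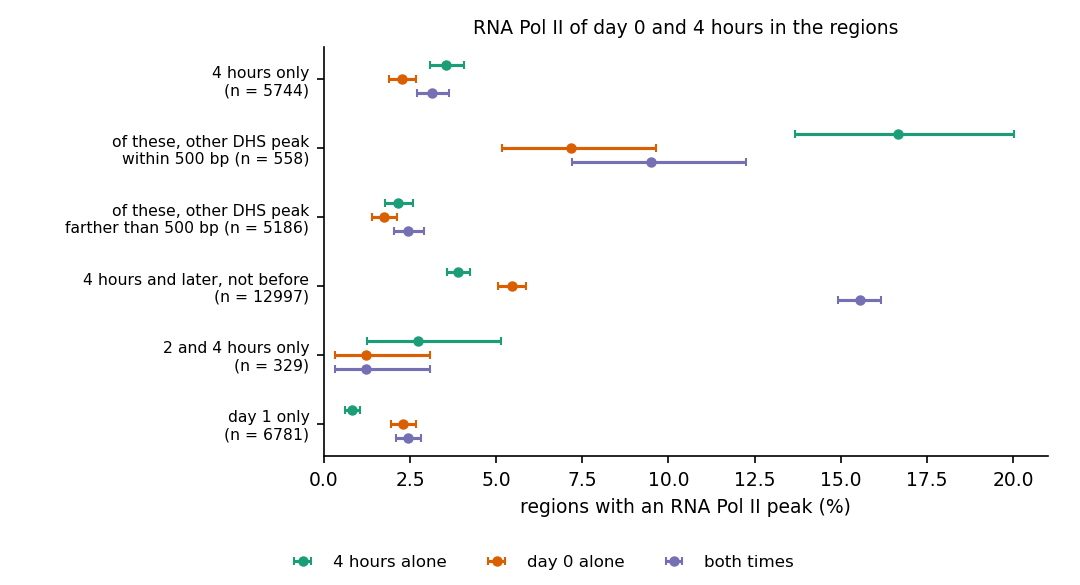
Share of regions (%) with an RNA Pol II peak at 4 hours alone (green), on day 0 alone (orange) or at both times (purple), for regions listed at 4 hours only, the same split by the gap to the nearest other DHS peak, and the 3 comparison classes; bars are exact 95% intervals. Regions within 500 bp of another DHS peak stand out with 16.7% at 4 hours alone.

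Regions with a gain differed in their factors from those that held RNA Pol II at both times. C/EBPbeta at 4 hours lay in 51 of the 204 gained regions (25.0%, 19.2 to 31.5), 22 of the 130 lost (16.9%, 10.9 to 24.5), 12 of the 180 with both (6.67%, 3.49 to 11.4) and 42.0% of the 5230 with neither. GR was listed at 7 gained regions, 2 lost and none of the 180 with both, which allows a share of up to 2.03%. Gained regions of the greatest width lay at chr14:29319531-29321241 (1711 bp, also the widest of all 5744), chr2:77118726-77119924 (1199 bp, with C/EBPbeta at 2 and 4 hours and C/EBPdelta) and chr11:116392873-116394016 (1144 bp). Each lay within 862 to 2307 bp of a peak of another DHS list. RNA Pol II of day 0 alone lay in the wide regions chr14:47504750-47505932, chr4:54959706-54960638 and chr11:105450416-105451185, none of them with any factor. The remaining 3 of the 5 widest regions were at chr10:5569960-5571281 and chrX:7011252-7012450, both with C/EBPbeta on day 0, at 2 and at 4 hours, C/EBPdelta and Stat5a, and at chr8:49194933-49196152, with both RNA Pol II peaks alone.

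RNA Pol II near the regions did not show more gains than losses. The nearest RNA Pol II region lay a median of 41939 bp away, against 22285 bp in the later class, 43165 bp in the early class and 54051 bp in the day 1 class. Within 10 kb, 696 regions had RNA Pol II of both times as the nearest, 12.1% (background 26.8%). For 341 it was of 4 hours alone, 5.94% (background 6.69%), and for 380 of day 0 alone, 6.62% (background 10.4%). The state of 4 hours alone made up 24.1% (21.9 to 26.4) of the regions with RNA Pol II within 10 kb. It made up 17.2% (16.2 to 18.3) in the later class and 21.3% (11.9 to 33.7) in the early class. The share was 19.1% (17.0 to 21.3) in the day 1 class and 15.2% over all regions listed at 4 hours. The remaining 4327 regions (75.3%, background 56.0%) had no RNA Pol II within 10 kb. That share was 60.1% in the later class, 81.5% in the early class and 80.8% in the day 1 class.

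The regions were spread over the genome. They made up between 13.4% (10.9 to 16.3, 87 of 648) of the regions listed at 4 hours on chromosome X and 21.2% (18.6 to 24.0, 200 of 943) on chromosome 18, and 16.2% to 20.2% on the other 18 chromosomes that held regions. The nearest other region listed at 4 hours lay a median of 10717.5 bp away, close to the 10162 bp of the later class. Another region of their own kind lay within 10 kb of 828 of the 5744 (14.4%), against 26.9% of the later class, which has more regions. A region listed at all 6 times lay within 10 kb in 7.97% of cases, against 8.97%.

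Regions that shared 4 hours with 1 other time differed in RNA Pol II. Those listed at 4 hours and on day 2 alone (n = 786) gained RNA Pol II in 13.9% (11.5 to 16.5) of cases, against 2.43% (2.03 to 2.87) of the 5357 listed at 4 hours and on day 1 alone. C/EBPbeta at 4 hours was about as frequent in both, at 41.3% and 41.9%. With the day 2 list left out of the rule, gains were found at 5.21% of 6645 regions, in place of 3.55%.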

How the data were processed

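The authors deposited 1 peak list per sample, 19 in all, for 20 samples of 3T3-L1 cells. The input sample has no list here and was not used. Per the file headers, a list holds the chromosome and the first and last position of each peak, in bp, with no score, and per the submitters' processing notes the build is mm9. The peak caller, its threshold and filters are not given in the sources used here. List length is given as the number of peaks (2076 to 35389), which is not a measure of sequencing depth. Positions are counted from 1.

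Overlap meant 1 bp or more. Regions were scored as holding a peak of a list or not, and shares carry exact Clopper-Pearson 95% intervals. No test was run, since each group has 1 library. The functions were tested on simulated data with planted regions. Regions are named by position: the 5 widest overall and with all 5 factors, and the 3 widest with each other factor, RNA Pol II or PPARgamma content described. The regions, classes and lists were chosen with earlier results of these data known. Alternatives were overlap of 50% of the shorter peak, gaps of up to 500 bp, 200 bp for every peak, only the wider peaks of a list, equal list length, the central 200 bp, and no DHS peaks under 251 bp. Added after the data were seen were each other DHS list left out, C/EBPbeta lists at equal length, the middle of the width range, the gap to other DHS peaks, regions of 2 lists, and these settings for the RNA Pol II gain share and the C/EBPbeta ratios. Genes and motifs are not described, as a genome of this build was not used here. Python 3.11.15, NumPy 2.4.6, SciPy 1.17.1, pandas 2.3.3 and Matplotlib 3.10.9 were used.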

Additional observations from a re-analysis of the deposited data

How the results depend on the processing

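The number of regions depended most on list length: 904 with the DHS lists at equal length (9055 peaks, by width), 2878 with the wider peaks of each list, 2879 in the middle of the width range, which keeps fewer by construction, and 5796 to 11140 with 1 other DHS list left out (5853 without day 0). The 904 regions held C/EBPbeta at 4 hours in 53.5%, GR in 11.0%, 2 or more factors in 37.7% and a gain of RNA Pol II in 5.86% of cases; the cause was not tested, and these shares exceed those of the 5744. With the wider peaks, C/EBPbeta was at 36.3%, newly bound by 4 hours at 23.3%, and 2 or more factors at 19.0%. Peaks set to 200 bp gave 34.2%, 23.5% and 17.9% for these shares. Joined gaps gave 41.4% for C/EBPbeta, 27.9% for new binding and 1.98% for RNA Pol II gains, and the 50% overlap gave 20.3% with 2 or more factors. C/EBPbeta lists at equal length gave 29.2%, 18.9% and, for 2 or more factors, 19.0%. The middle width range gave 3.65% for GR, 20.0% for 2 or more factors and 2.92% for gains. With 1 other DHS list left out, the shares ran from 39.2% to 41.5% for C/EBPbeta, 23.6% to 27.6% for new binding, 4.13% to 5.44% for GR, 21.2% to 23.7% for 2 or more factors and 3.06% to 5.21% for gains. The share of gains among regions with RNA Pol II at 1 time alone fell below that of losses, to 43.3%, with the wider peaks; the cause was not tested. Of 280 alternative counts, shares and ratios, 180 stayed within the interval of the reported share or within 1.5 times the reported count or ratio, and 100 did not. Of 35 named regions, 27 remained with equal list length, 30 with joined gaps and 33 with the wider peaks. All 35 remained under each other alternative in which they were looked up. They were not looked up in the middle of the width range (402 to 555 bp), which leaves all of them out, as the narrowest is 559 bp wide. No paired analysis was possible because each group has 1 library. Sites too weak for a peak in a list cannot be seen, and without scores their strength is unknown.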
